A study of Rattus norvegicus with 20 samples.

Results

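The genes described here belong to the families of enzymes that place and remove acetyl and methyl groups on histone lysines. They were measured in a failed and a normal heart of Dahl rats. They were taken by symbol: histone deacetylases (Hdac), sirtuins (Sirt), lysine acetyltransferases (Kat, with Ep300 and Crebbp), lysine methyltransferases (Kmt, Setd, Setdb, Ezh, Ehmt, Suv39h, with Dot1l) and lysine demethylases (Kdm). Of the 14217 genes with a probe set assigned to that gene alone, 63 fitted, with 113 probe sets between them, and 27 of the 63 had more than 1. The current rat gene table holds 78 protein-coding genes with such symbols. The other 15, among them Hdac9, Sirt1, Kat8, Kdm4a, Kdm6a, Setd7 and Suv39h1, had no probe set assigned to them alone and were not analysed here.

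Dahl rats were selected by how strongly salt in the diet raises their blood pressure. The failed heart is labelled as congestive heart failure, and a high-sodium diet is named for only 1 of its samples, that of mRNA. All samples are given as 19 weeks old except the normal H4ac sample, for which no age is given. Each heart had 10 Affymetrix Rat Genome 230 2.0 arrays: mRNA, genomic DNA before immunoprecipitation (pre-IP), and chromatin immunoprecipitates (ChIP) for acetylated H3 (H3ac) and H4 (H4ac), for dimethylated K4, K9 and K27 (K4me2, K9me2, K27me2) and for trimethylated K4, K9 and K20 (K4me3, K9me3, K20me3). The histone carrying the methyl marks is not named. The failed and the normal group each had 1 array per assay, so no error, test or replicate check was possible for any difference below. Whether the arrays of a group were made from the same tissue is not stated; "heart" below stands for the group. The source of the normal H4ac sample is given as pre-IP DNA, while its title, description and protocol name acetylated H4; it was used as H4ac.

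Acetyltransferases add acetyl groups to histone tails, which loosens chromatin and recruits bromodomain proteins, and deacetylases remove them. Zinc-dependent deacetylases fall into classes, of which class IIa binds MEF2 transcription factors in heart and skeletal muscle and leaves the nucleus when phosphorylated, while the sirtuins need NAD. Methylation of H3K4 is known from active and poised promoters, that of H3K9, H4K20 and H3K27 from silent chromatin, and each site has its own methyltransferases and demethylases. The marks on the arrays are products and substrates of some of the enzymes described. Others act on sites that were not measured or on substrates other than histones, as named with those genes below.

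The arrays carry probes for transcripts, so a ChIP value describes DNA under those probes and not a promoter. For the 4 genes whose mRNA differed at least 2-fold, the 250 bases before the annotated start are shown to let a reader see what kind of promoter they have. The sequences come from RefSeq on the GRCr8 assembly, read 5′ to 3′ on the gene's strand, with each CG dinucleotide in capitals. They lie at chr1:78135932-78136181 for Kmt5c, chr6:132854422-132854671 for Setd3, chr7:9607096-9607345 for Dot1l and chr11:46344025-46344274 for Setd4, all on the minus strand.
Kmt5c: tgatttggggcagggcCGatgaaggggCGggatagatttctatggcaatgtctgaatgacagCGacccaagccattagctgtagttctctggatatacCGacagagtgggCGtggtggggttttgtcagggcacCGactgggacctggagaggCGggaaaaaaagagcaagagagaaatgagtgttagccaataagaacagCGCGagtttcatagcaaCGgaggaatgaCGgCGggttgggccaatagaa
Setd3: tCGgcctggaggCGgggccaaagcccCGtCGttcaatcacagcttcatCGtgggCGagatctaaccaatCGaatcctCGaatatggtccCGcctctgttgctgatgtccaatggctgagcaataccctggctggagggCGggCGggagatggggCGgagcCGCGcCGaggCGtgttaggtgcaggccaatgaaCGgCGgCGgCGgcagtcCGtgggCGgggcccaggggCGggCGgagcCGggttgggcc
Dot1l: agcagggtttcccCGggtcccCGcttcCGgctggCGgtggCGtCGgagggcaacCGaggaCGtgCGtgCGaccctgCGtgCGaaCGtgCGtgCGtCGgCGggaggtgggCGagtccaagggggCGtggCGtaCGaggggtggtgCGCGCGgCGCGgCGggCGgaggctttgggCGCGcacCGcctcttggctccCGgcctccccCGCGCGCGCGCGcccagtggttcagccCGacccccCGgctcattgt
Setd4: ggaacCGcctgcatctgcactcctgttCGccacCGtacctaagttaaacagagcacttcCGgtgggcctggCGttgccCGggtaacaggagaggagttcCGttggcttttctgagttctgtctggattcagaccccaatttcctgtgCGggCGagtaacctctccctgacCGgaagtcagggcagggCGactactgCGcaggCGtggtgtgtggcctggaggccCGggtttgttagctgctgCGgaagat

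These windows held 12 CG dinucleotides for Kmt5c, 25 for Setd3, 40 for Dot1l and 15 for Setd4. GGGCGG, the core of the GC box that Sp1 binds, was found on either strand in the windows of Kmt5c, Setd3 and Dot1l, and these letters were not in that of Setd4. Promoter sequences were matched for 54 of the 63 enzyme genes. Their windows held a median of 18.5 CG, against 15 for all genes of the arrays and 17 for the array genes that passed the mRNA level filter described below. At least 10 CG were present in 92.6% of the enzyme windows, 67.2% of those of the array genes and 76.8% of those past the filter. GGGCGG was present in 64.8%, 54.2% and 60.1% of these sets, and in 32.4% of the windows of all 27457 genes in the promoter table. GGGCGG contains 1 CG, so the 2 counts overlap.

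All values below are scaled intensities: each array was brought to a median of 100 and values under 10 were set to 10, the floor. The deposited medians had run between 189 and 415, and the floor was reached by 2.14% to 11.0% of the probe sets of an array and by 0 to 4 enzyme genes. Differences are log2, failed minus normal, and were counted at 1 or more in size (2-fold). Only genes whose level, averaged over the arrays set against each other, reached the median of all probe sets were counted, which is the level filter. The mRNA samples are described as left ventricular myocytes. Markers of cardiomyocytes were present in both, with summed levels of 121300 in the failed heart and 108100 in the normal heart, 2 of 7 (Myl2, Mb) at least 2-fold higher and 1 (Myh6) at least 2-fold lower. The second probe set of Myl2 ran the other way, with a log2 difference of -1.23, and that of Myh6 gave -3.32. Markers of other cells differed too. Fibroblast markers summed to 42820 in the failed heart and 20120 in the normal heart (3 of 7 at least 2-fold higher), and macrophage and leukocyte markers to 10420 in the failed and 2783 in the normal heart (2 of 7 higher). Smooth muscle markers summed to 2380 in the failed and 5595 in the normal heart (5 of 5 lower), and endothelial markers to 10360 in the failed and 10700 in the normal heart (1 of 5 higher). The second probe sets of the smooth muscle markers Myh11 and Smtn gave -0.26 and 0.02. Red blood cell markers summed to 4347 in the failed and 1159 in the normal heart (1 of 3 higher). None of these markers was at the floor on either mRNA array. The 3′ to 5′ intensity ratio of GAPDH was 22.6 in the failed and 11.3 in the normal heart, and that of beta-actin 12.4 in the failed and 18.2 in the normal heart. The part of cell composition and RNA quality in the results below was not tested, and in such bulk samples fewer cells of a type and less RNA per cell cannot be told apart.

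Most of the enzyme mRNAs differed by less than 2-fold between the hearts. Of the 63, 54 passed the level filter, and of these 1 (1.85%) was at least 2-fold higher in the failed heart and 3 (5.56%) at least 2-fold lower. Of all 9317 genes that passed, 11.8% were higher and 3.14% lower by this measure. The higher side thus held a smaller share of the enzymes than of genes in general. The 3 genes on the lower side are too few to set its share apart from that of all genes. The median difference of the 54 was -0.05, against 0.23 for all genes, with 23 above 0 and 31 below, while 64.0% of all genes lay above 0. Relative to the all-gene median, 12 of the 54 lay above and 42 below. That median was -0.04 with the values as deposited and 0.01 after quantile normalization. Then 12 and 14 of the enzyme genes lay above 0, beside 47.7% and 50.4% of all genes, so the sign of a small difference depends on the scaling. The split of the 2-fold calls depended on the scaling. With the values as deposited 0 of the 54 were higher and 7 lower (Dot1l, Hdac10, Hdac5, Hdac7, Kdm8, Kmt5c and Setd4). After quantile normalization 0 were higher and 5 lower (Dot1l, Hdac5, Hdac7, Kmt5c and Setd4). Of all genes, 13% were past 2-fold in either direction as deposited and 11.9% after quantile normalization. These all-gene shares were not split by direction, so the lower side of the enzymes has no background there.

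**Figure D1:**
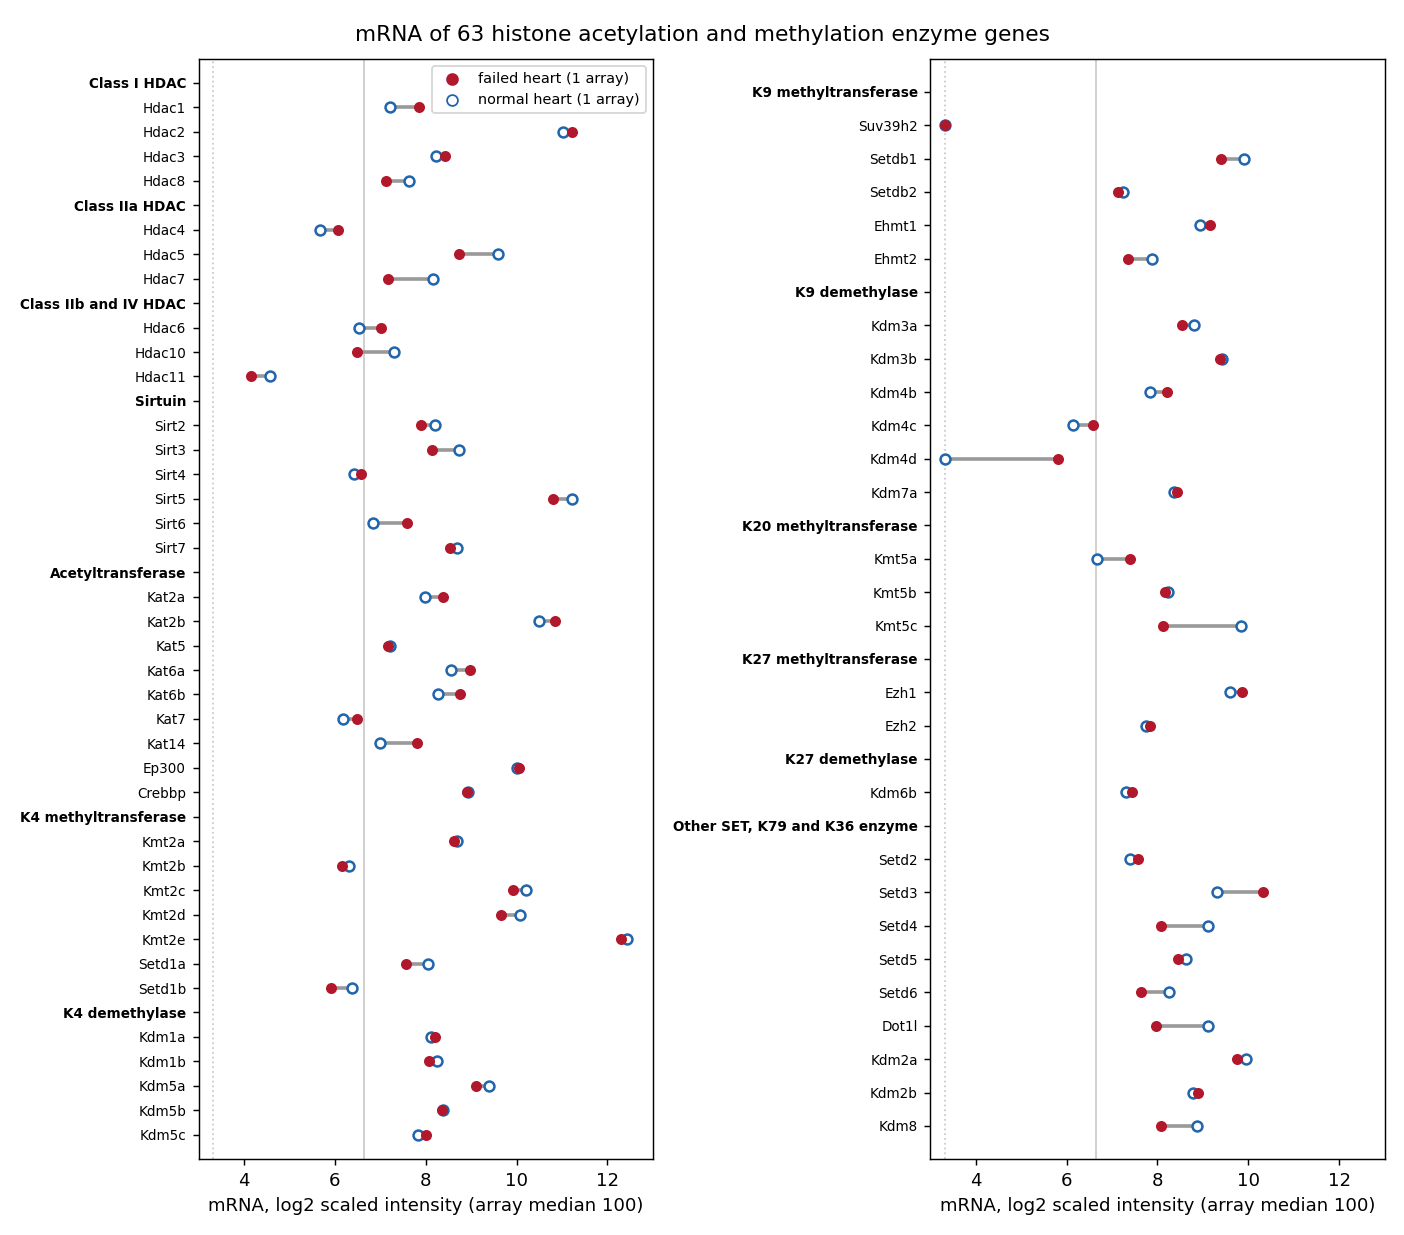
Scaled mRNA intensity (log2, array median 100) of the enzyme genes in the failed and the normal heart, grouped by role, 1 point per gene and heart, with a solid line at the array median and a dotted line at the floor. Most pairs of points lie close together, and Kmt5c, with 279 in the failed heart and 915 in the normal heart, is the widest pair on the lower side among genes that passed the level filter.

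Setd3, an actin histidine methyltransferase with a SET domain, was the only gene among those that passed the level filter to lie past 2-fold on the higher side. It had 1283 in the failed heart and 638 in the normal heart, a difference of 1.01, and its second probe set gave 289 in the failed and 145 in the normal heart (0.99). Both probe sets thus lay close to the 2-fold line in the same direction, and the first came to 0.74 with the deposited scaling and 0.68 after quantile normalization. Kmt5c, which makes H4K20me3 together with Kmt5b, had 279 in the failed heart and 915 in the normal heart, a difference of -1.71. Kmt5c has a single probe set, so no second value bears on it. Dot1l, the H3K79 methyltransferase, had 250.0 in the failed heart and 552 in the normal heart (-1.14). Its second probe set was at the floor in the failed heart and at 55.4 in the normal heart, so that value is a bound in the same direction. Setd4, a SET domain protein, had 272 in the failed heart and 556 in the normal heart (-1.03). Just inside the 2-fold line on the lower side lay Hdac7 (-0.99), Hdac5 (-0.85), Hdac10 (-0.82) and Kdm8 (-0.80), and on the higher side Kat14 (0.80), Sirt6 (0.76) and Kmt5a (0.74).

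**Figure D2:**
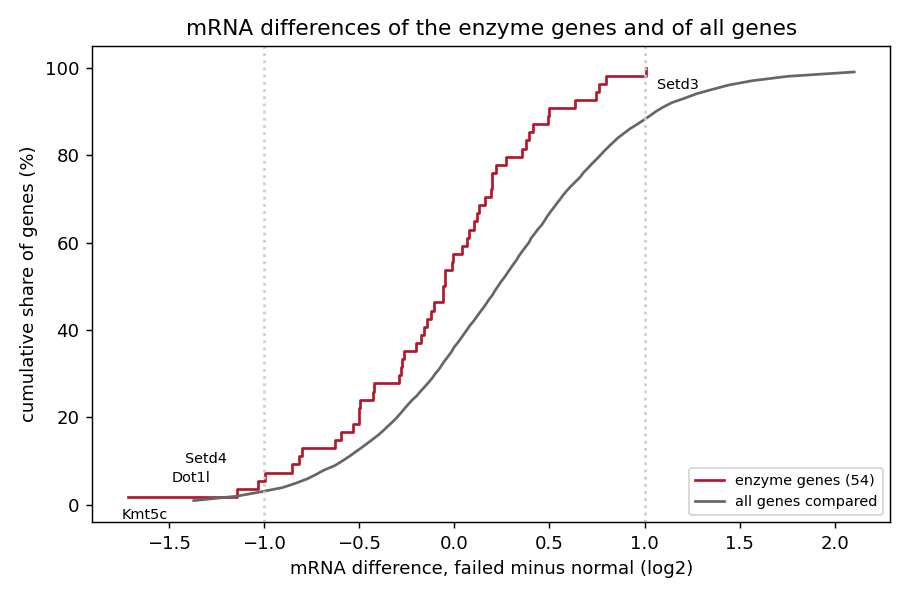
Cumulative share of genes (percent) against the log2 mRNA difference, failed minus normal, for the 54 enzyme genes and for all 9317 genes that passed the level filter, the curve of all genes drawn without its extreme percentiles. The enzyme curve lies left of that of all genes through its middle, with medians of -0.05 and 0.23, and the 4 labelled genes are those past 2-fold.

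All class I deacetylases passed the filter and none reached 2-fold. Hdac1 and Hdac2 are the catalytic subunits of the Sin3, NuRD and CoREST complexes and Hdac3 that of NCoR, while Hdac8 is not part of these. Hdac1 had 231 in the failed heart and 149 in the normal heart (0.63), and its weaker probe set 80.6 in the failed and 22.8 in the normal heart (1.82). Hdac2 had 2399 in the failed and 2090 in the normal heart (0.20). Hdac3 had 342 in the failed and 299 in the normal heart (0.20), and Hdac8 had 140 in the failed and 198 in the normal heart (-0.50). Hdac1 lay above 0 and Hdac8 below it under each of the 3 scalings, whereas Hdac2 (-0.07 as deposited, -0.35 after quantile normalization) and Hdac3 (-0.07 as deposited, 0.03 after quantile normalization) lay below the all-gene median of 0.23 and had no settled side.

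Of the class IIa deacetylases, Hdac5 and Hdac7 had the lower values in the failed heart and stayed short of 2-fold. Hdac5 had 424 in the failed heart and 766 in the normal heart (-0.85), although its second, weaker probe set ran the other way with 35.8 in the failed and 15.6 in the normal heart (1.20). Hdac7 had 144 in the failed and 288 in the normal heart. Hdac4 did not pass the filter, with 67.1 in the failed heart and 50.8 in the normal heart. In class IIb, Hdac6, a mainly cytoplasmic tubulin deacetylase, had 129 in the failed and 91.8 in the normal heart (0.49). Hdac10, a polyamine deacetylase, had 89.1 in the failed and 157 in the normal heart (-0.82). The other 3 probe sets of Hdac10 differed among themselves, at 0.25, -2.46 and 0.14. Hdac11, the class IV member, lay below the filter at 17.8 in the failed and 23.6 in the normal heart.

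Among the sirtuins, 5 passed and 4 of these lay below 0, none by 2-fold. The mitochondrial deacetylase Sirt3 had 283 in the failed heart and 428 in the normal heart (-0.60). Sirt5, the mitochondrial desuccinylase, had 1775 in the failed and 2385 in the normal heart (-0.43). Both lay below 0 without reaching 2-fold. Sirt2, a mainly cytoplasmic tubulin deacetylase, had 240 in the failed and 293 in the normal heart (-0.29). The nucleolar Sirt7 had 373 in the failed and 412 in the normal heart (-0.15). The chromatin-bound Sirt6 was the exception, with 194 in the failed heart and 114 in the normal heart (0.76). Sirt4, mitochondrial, did not pass, at 96.0 in the failed and 85.4 in the normal heart.

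Of the acetyltransferases, 8 passed and none was past 2-fold, with a median of 0.37 against 0.23 for all genes. Above 0 were 6 of the 8 (75%, against 64.0% of all genes), 5 with the deposited scaling (47.7% of all genes) and 4 after quantile normalization (50.4%). Ep300 had 1063 in the failed heart and 1034 in the normal heart (0.04, but -0.23 as deposited and -0.32 after quantile normalization), and its other probe set 83.0 in the failed and 95.8 in the normal heart (-0.21). Its paralogue Crebbp had 482 in the failed and 487 in the normal heart (-0.02, but -0.28 as deposited and -0.25 after quantile normalization). Its other 4 probe sets spread between -1.14 and 0.71. Those with levels like that of the probe set used gave -0.44 (399 in the failed, 540 in the normal heart) and 0.71 (486 in the failed, 298 in the normal heart). Both coactivators thus stood at nearly equal levels in the hearts only at the probe sets used and in this scaling. Kat2a (GCN5), at 334 in the failed and 255 in the normal heart (0.39), and Kat2b (PCAF), at 1838 in the failed and 1436 in the normal heart (0.36), lay above 0, although Kat2b was at -0.11 after quantile normalization. So did the MYST family members Kat6a, with 502 in the failed and 377 in the normal heart (0.41), and Kat6b, with 434 in the failed and 308 in the normal heart (0.50). Other probe sets did not all lie on that side: that of Kat2b, at 13.9 in the failed and 34.3 in the normal heart, gave -1.31. Those of Kat6a gave 0.11 and 0.19, and those of Kat6b -0.18 and 0.26, the second a bound since the normal value was at the floor. Kat14, of the ATAC complex, had 222 in the failed and 128 in the normal heart (0.80), and at its second probe set 161 in the failed and 169 in the normal heart (-0.08). Kat5 (Tip60) had 144 in the failed and 149 in the normal heart (-0.05). Kat7 (HBO1) did not pass, at 89.2 in the failed and 72.0 in the normal heart.

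All 5 H3K4 methyltransferases that passed lay below 0 under each of the 3 scalings, from -0.50 to -0.06 here. Of all genes, 36% lay below 0 in this scaling, 52.3% as deposited and 49.5% after quantile normalization. Kmt2a (MLL1) had 394 in the failed heart and 411 in the normal heart, and Kmt2c 971 in the failed and 1181 in the normal heart. Kmt2d had 801 in the failed and 1074 in the normal heart. These are catalytic subunits of COMPASS-like complexes, and in each the probe set used was lower in the failed heart by less than 2-fold. Kmt2e, a relative without clear methyltransferase activity, had 5062 in the failed and 5513 in the normal heart, and Setd1a had 188 in the failed and 265 in the normal heart. Kmt2b did not pass, at 70.8 in the failed and 78.8 in the normal heart, nor did Setd1b, at 60.6 in the failed and 83.1 in the normal heart. In this scaling none of the probe sets used came near 2-fold, and the largest difference in size was that of Setd1a. Setd1a was at -0.76 as deposited. After quantile normalization Kmt2e was at -0.80, Kmt2d at -0.77 and Setd1a at -0.61. The other probe sets lay further apart in this scaling: at Kmt2a -0.34, -0.17 and a bound of -2.44 with the failed value at the floor, at Kmt2c -0.51, at Kmt2d 0.90, at Kmt2e from -0.60 to 0.06 and at Setd1a 0.49 and -1.87. The H3K4 demethylases Kdm1a (LSD1) (0.08), Kdm1b (-0.18), Kdm5a (-0.28), Kdm5b (-0.01) and Kdm5c (0.19) lay on both sides of 0 and below the all-gene median. All 5 were below 0 as deposited, where 52.3% of all genes were. Here too other probe sets differed, with 0.58, 0.68 and 2.38 at Kdm5a, 2.05 and 1.09 at Kdm5c, and -0.16, 0.29, 0.61 and a bound of 0.63 at Kdm5b.

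Of the H3K9 methyltransferases, Ehmt2 (G9a), which makes H3K9me2 with Ehmt1, had 163 in the failed heart and 236 in the normal heart (-0.53). Ehmt1 (GLP) had 568 in the failed and 488 in the normal heart (0.22, but -0.05 as deposited and -0.03 after quantile normalization). Setdb1 had 676 in the failed and 957 in the normal heart (-0.50), with a bound of -0.98 at its second probe set. Setdb2 had 141 in the failed and 152 in the normal heart (-0.11), and Suv39h2 was at the floor on both mRNA arrays. The erasers of H3K9 methylation that passed spanned -0.27 to 0.38: Kdm3a, Kdm3b, Kdm4b and Kdm7a. Kdm4b had 295 in the failed and 227 in the normal heart (0.38), but its other probe sets gave -1.23 and -1.85. Kdm4d did not pass: it had 56.3 in the failed heart and was at the floor in the normal heart, and without the level filter it made a second gene on the higher side. Kdm4c did not pass either, at 95.3 in the failed and 70.7 in the normal heart.

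For K20 the 3 methyltransferases stood apart from each other. Kmt5a, which places the first methyl group, had 170 in the failed heart and 101 in the normal heart (0.74). Kmt5b had 287 in the failed and 299 in the normal heart (-0.06), and Kmt5c is described above. For K27, the Polycomb methyltransferases Ezh1, with 933 in the failed and 774 in the normal heart (0.27), and Ezh2, with 230 in the failed and 214 in the normal heart (0.10), lay above 0, but Ezh2 was at -0.17 as deposited, and Ezh1 at -0.07 and Ezh2 at -0.02 after quantile normalization. The other probe sets of Ezh2 gave 2.67, a bound since the normal value was at the floor, and -0.11, and that of Ezh1 gave -0.81. Kdm6b (JMJD3), which removes H3K27 methylation, had 174 in the failed heart and 158 in the normal heart (0.13, but -0.14 as deposited). Of the remaining enzymes, the H3K36 methyltransferase Setd2 (0.16) and the H3K36 demethylases Kdm2a (-0.20) and Kdm2b (0.12), like Setd5 (-0.16), lay far from 2-fold at the probe sets used. The other probe sets of Kdm2a gave -0.67 and -0.88 and those of Setd5 0.24 and -0.32. Kdm8, with 269 in the failed and 470 in the normal heart (-0.80), and Setd6, which methylates the NF-kappaB subunit RelA in human cells, with 198 in the failed and 306 in the normal heart (-0.63), were on the lower side short of 2-fold.

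A second probe set of the same gene is the nearest thing to a repeat that these arrays offer. For the 27 genes with more than 1, the probe set used was set beside the next by mean log2 mRNA. Their mRNA differences had the same sign in 13, with a Pearson correlation of 0.24 across genes. A difference of 0 counted as not the same, as at Kmt2b, whose second probe set was at the floor on both mRNA arrays. Its direction thus recurred at about as many genes as not, and the same holds for the pre-IP difference, with the same sign in 12 of 27 and a correlation of -0.11. No such count was made over all genes, and the second probe sets were not held to the level filter. Some of them lay near the floor, so these counts show nothing particular to the enzymes. Genes are not replicates, so no p-value is given.

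Partners of the enzymes were counted in the same way from lists of 100 genes, of which 82 passed. Among these, 2 (2.44%, against 11.8% of all genes) were at least 2-fold higher in the failed heart and 3 (3.66%, against 3.14%) at least 2-fold lower, with a median of 0.20 against 0.23. The 2 higher genes were both among the 12 of the corepressor list: Sin3b, the scaffold of a class I deacetylase complex, with 685 in the failed heart and 253 in the normal heart, and Mbd2, a methyl-CpG reader in NuRD, with 1337 in the failed and 490 in the normal heart. The second probe set of Sin3b gave -0.17. Brd2, a bromodomain reader of acetylated histones, had 137 in the failed and 313 in the normal heart, but its second probe set gave 1.70 in the other direction. Camk2g, one of the kinases that phosphorylate class IIa deacetylases, had 93.7 in the failed and 206 in the normal heart, with -0.17 at its second probe set, and Nmnat1, the nuclear NAD synthesis enzyme, had 144 in the failed and 371 in the normal heart. None of the 8 Polycomb repressive complex 2 genes, the 7 COMPASS subunits or the 19 other lysine methyltransferase and demethylase genes that passed reached 2-fold.

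Pre-IP DNA is the measure against which each ChIP array was set, since enrichment is the log2 ratio of a ChIP value to the pre-IP value of its own heart. Among the 32 enzyme genes that passed the filter on pre-IP, Sirt6, Kmt2b and Kmt5a were at least 2-fold higher in the failed heart (9.38%, against 3.96% of all genes) and Setd6 at least 2-fold lower (3.12%, against 3.53%). Sirt6 had 150.2 in the failed heart and 65.1 in the normal heart, and Kmt2b 201 in the failed and 88.9 in the normal heart. Kmt5a had 279.5 in the failed and 139 in the normal heart, and Setd6 155 in the failed and 310.4 in the normal heart. All 8 marks of a heart share this 1 pre-IP array, so a pre-IP difference enters all 8 mark differences with the opposite sign. In all, 5 of 63 enzyme genes had every mark higher in the failed heart (7.94%, against 10.4% of all genes): Sirt5, Kdm5a, Kdm5c, Ehmt1 and Setd6. Another 7 had every mark lower (11.1%, against 12.5%): Hdac6, Sirt2, Sirt4, Kat6a, Crebbp, Kmt2b and Kmt5a. In each of these 12 genes the pre-IP difference ran opposite to the marks, from -0.42 in Kdm5a to -1.01 in Setd6 for the first set and from 0.25 in Sirt4 to 2.47 in Kat6a for the second. The pre-IP values of Hdac6 and Kat6a were at the floor in the normal heart. Leaving out pre-IP, none of the 12 kept all 8 marks on its side. In the first set Kdm5a had 7 of 8 marks higher, Kdm5c and Ehmt1 5 each, and Sirt5 and Setd6 2 each. In the second set the marks that were now higher numbered 1 in Sirt4 and Kmt2b, 2 in Hdac6, Sirt2 and Kmt5a, 3 in Crebbp and 4 in Kat6a. Calls of a mark difference are therefore given below with the difference of the ChIP values alone beside that of enrichment.

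**Figure D3:**
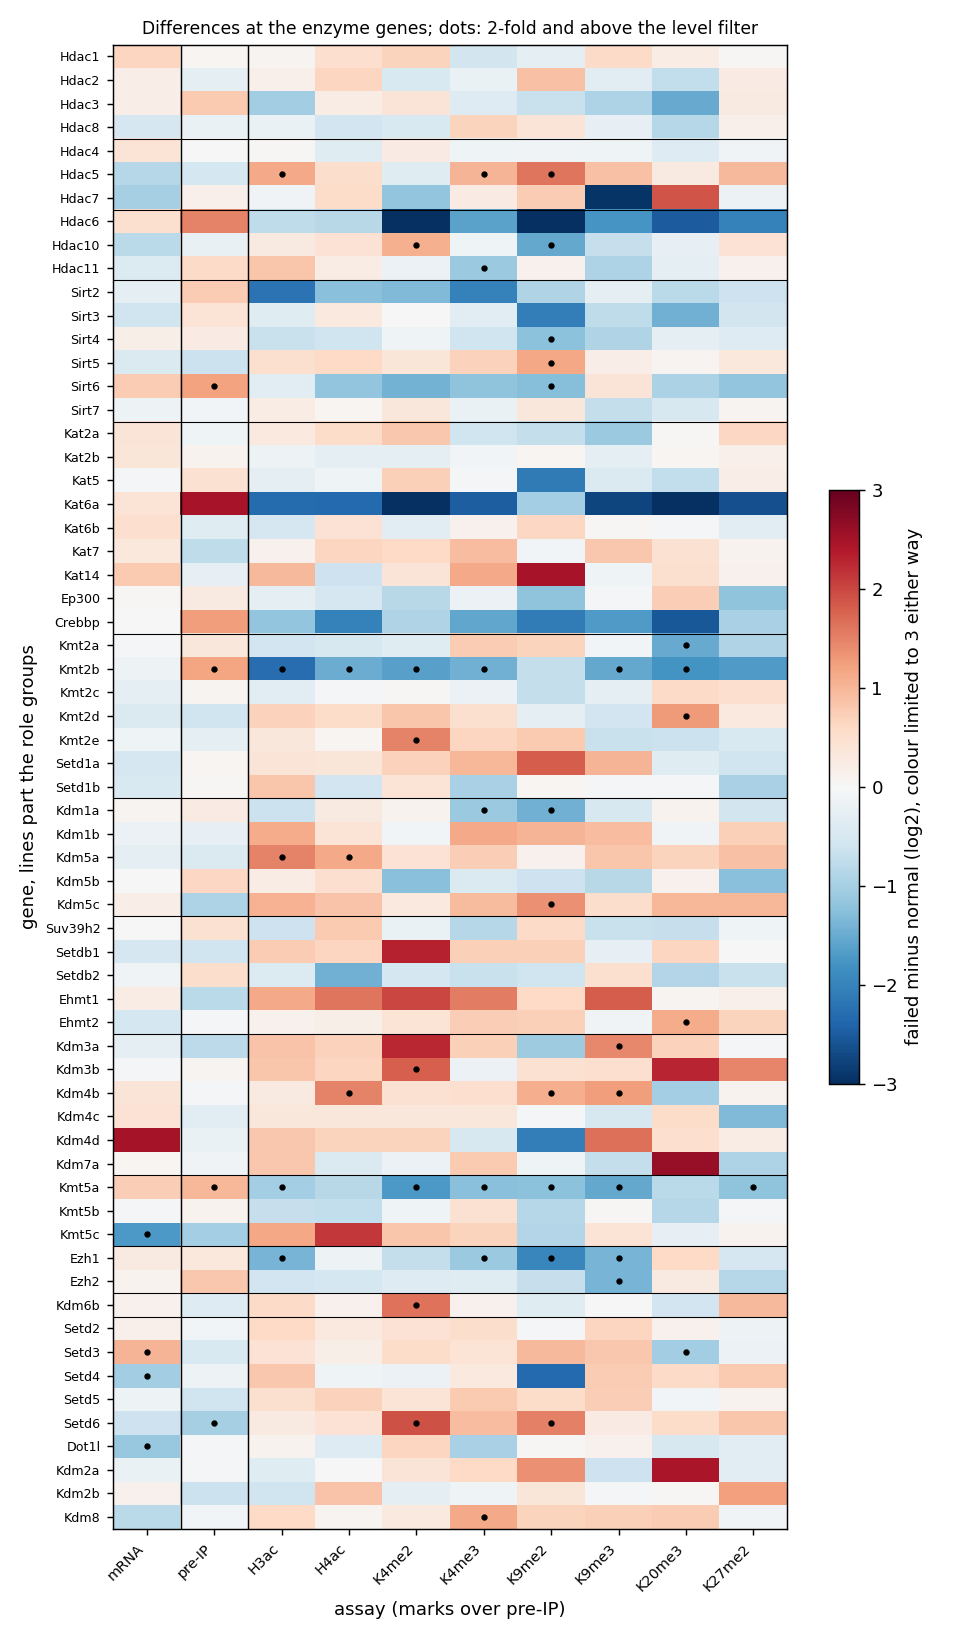
Map of the log2 difference, failed minus normal, of mRNA, pre-IP and the enrichment of 8 marks at the 63 enzyme genes, ordered by role (colour scale in log2 units). Rows such as Kmt2b and Kmt5a show 1 colour across all marks and the opposite colour at pre-IP.

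Histone acetylation, the product of the Kat enzymes and substrate of the deacetylases, differed at few of the enzyme genes. For H3ac, 33 genes passed. Hdac5 and Kdm5a were at least 2-fold higher in the failed heart (10.7% of all genes were) and Kmt2b, Kmt5a and Ezh1 at least 2-fold lower (8.65%). Hdac5 had ChIP values of 269.5 in the failed heart and 175 in the normal heart and an enrichment difference of 1.14, of which 0.62 was in the ChIP arrays alone. At its second probe set the difference was -0.56. Kdm5a had 142 in the failed and 67.7 in the normal heart, a difference of 1.49 with 1.07 from ChIP alone, and between 0.06 and 0.42 at its other probe sets. Kmt2b had 128 in the failed and 276 in the normal heart (-2.29, ChIP alone -1.11), but its second probe set gave 0.20. Ezh1 had 565 in the failed and 1199 in the normal heart (-1.40, ChIP alone -1.08), with -0.59 at its second probe set. Kmt5a, at 141 in the failed and 143 in the normal heart, differed in its pre-IP and hardly in its ChIP values (-0.02). Ordered by the mean of both hearts among genes with no value at the floor, Suv39h2, at -1.72 in the failed and -1.11 in the normal heart, and Ehmt1, at -0.62 in the failed and -1.76 in the normal heart, had the lowest H3ac enrichment. Both lay below the level filter for this mark.

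For H4ac, 35 passed, with Kdm5a (1.13, ChIP alone 0.71) and Kdm4b (1.49, ChIP alone 1.44) higher, against 4.91% of all genes, and Kmt2b (-1.50, ChIP alone -0.32) lower, against 6.49%. When ChIP values were counted without pre-IP, with the level filter on the ChIP arrays alone, no enzyme gene was past 2-fold for H4ac (5.39% of all genes). Kdm4b had H4ac ChIP values of 147 in the failed heart and 54.4 in the normal heart, but its enrichment difference was -2.81 and -0.05 at its other probe sets. The other probe sets of Kdm5a gave differences of 0.23, 0.35 and -0.0028, and that of Kmt2b 0.13. In both hearts Dot1l and Kdm8 lay at least 2-fold above pre-IP for H3ac, and Hdac10 and Kdm8 for H4ac. The enrichment of H3ac at Dot1l was 1.67 in the failed heart and 1.55 in the normal heart, and that of H4ac at Kdm8 1.17 in the failed and 1.08 in the normal heart. Among all genes 9.66% were above for H3ac and 4.82% for H4ac. None of the enzyme genes that passed was 2-fold below pre-IP in both hearts, against 1.37% and 1.34% of all genes. By the mean of both hearts H4ac was lowest at Hdac8, below the level filter, with -1.32 in the failed and -0.75 in the normal heart, and at Hdac5, with -0.63 in the failed and -1.17 in the normal heart. The second probe set of Hdac5 lay above pre-IP, at 0.32 in the failed and 0.49 in the normal heart. The median H3ac enrichment was 0.49 in the failed heart and 0.37 in the normal heart, close to 0.42 in the failed and 0.36 in the normal heart for all genes. For H4ac it was 0.35 in the failed and 0.33 in the normal heart, against 0.30 in the failed and 0.36 in the normal heart.

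K4me2, which the Kmt2 enzymes write and Kdm1a and Kdm1b erase, reached 2.53 above pre-IP at Kdm6b, the highest value of any mark among enzyme genes that passed. Of 31 genes that passed, 5 were at least 2-fold higher in the failed heart (11.6% of all genes were): Hdac10, Kmt2e, Kdm3b, Kdm6b and Setd6. Kmt2b (-1.63, ChIP alone -0.45, second probe set 0.39) and Kmt5a (-1.71, ChIP alone -0.70) were at least 2-fold lower (6.66%). Kdm3b had ChIP values of 292 in the failed heart and 78.9 in the normal heart, a difference of 1.79, and 1.89 from ChIP alone. Kdm6b had 2014 in the failed and 849.5 in the normal heart, a difference of 1.63, and 1.25 from ChIP alone. For these genes the ChIP arrays themselves differed by at least 2-fold, whereas Setd6, with 342 in the failed and 182 in the normal heart, reached 1.91 with 0.91 from ChIP alone. Hdac10 had 1529 in the failed and 851 in the normal heart (1.06, ChIP alone 0.85), and its other 3 probe sets lay on the same side at 1.15, 1.22 and 0.60. In both hearts Hdac10, Sirt4, Kmt2d and Dot1l were at least 2-fold above pre-IP (17.7% of all genes) and Kdm5a at least 2-fold below (1.31%). The second probe set of Kmt2d lay the other way, at -1.17 in the failed and -1.93 in the normal heart. That of Sirt4 gave 0.25 in the failed and -0.62 in the normal heart. Those of Kdm5a gave -0.56, -0.96 and -1.12 in the failed heart, and -1.94, -0.50 and 0.18 in the normal heart. K4me2 enrichment at Hdac10 was 2.38 in the failed heart and 1.32 in the normal heart, and at Kdm5a -1.38 in the failed and -1.82 in the normal heart. Kmt2e had 140 in the failed and 60.2 in the normal heart (1.49, ChIP alone 1.22), with 1.58, -0.05, 0.46 and 0.47 at its other probe sets. K4me2 was lowest at Kdm1b, with -1.98 in the failed and -1.91 in the normal heart, and at Kdm3a, with -0.76 in the failed and -3.01 in the normal heart, neither of which passed the filter. The median was 0.52 in the failed heart, near the 0.46 of all genes, and 0.01 in the normal heart, below their 0.34.

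K4me3, written by the same family and removed by the Kdm5 demethylases, lay near pre-IP at most enzyme genes. Of 30 that passed, Hdac5 and Kdm8 were at least 2-fold higher in the failed heart (8.89% of all genes) and Hdac11, Kmt2b, Kdm1a, Kmt5a and Ezh1 at least 2-fold lower (9.84%). Kdm8 had 281 in the failed heart and 134 in the normal heart, a difference of 1.14 and 1.07 from ChIP alone. Kdm1a had 48.2 in the failed and 88.1 in the normal heart (-1.12, ChIP alone -0.87). Hdac11 had 148 in the failed and 212 in the normal heart (-1.10, ChIP alone -0.52). Hdac5 differed by 1.02 (ChIP alone 0.50), Ezh1 by -1.12 (ChIP alone -0.81) and Kmt5a by -1.26 (ChIP alone -0.25), so of these calls only that of Kdm8 was past 2-fold on the ChIP arrays alone. The second probe set of Hdac5 gave -0.33, that of Ezh1 -0.41 and that of Kmt2b 0.10. Kmt2b had 109 in the failed and 130.5 in the normal heart (-1.43), of which -0.25 came from ChIP alone. None was 2-fold above or below pre-IP in both hearts, which 0.746% and 0.577% of all genes were. By the mean of both hearts K4me3 was highest at Hdac11, with 0.32 in the failed and 1.43 in the normal heart, and at Kdm8, with 1.12 in the failed and -0.02 in the normal heart. It was lowest at Kdm5a, with -0.84 in the failed and -1.57 in the normal heart, and at Kdm1a, with -1.74 in the failed and -0.62 in the normal heart. The other probe sets of Kdm5a gave -0.44, -1.11 and 0.62 in the failed heart, and -0.87, -0.30 and 0.26 in the normal heart. Kdm8 was also among the genes with high H3ac and H4ac in both hearts.

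K9me2, the mark that Ehmt1 and Ehmt2 write and the Kdm3 enzymes erase, differed between the hearts at more of the enzyme genes than any other mark, as it did among all genes. Of 30 that passed, Hdac5, Sirt5, Kdm5c, Kdm4b and Setd6 were at least 2-fold higher in the failed heart (16.0% of all genes) and Hdac10, Sirt4, Sirt6, Kdm1a, Kmt5a and Ezh1 at least 2-fold lower (9.30%). Ezh1 had ChIP values of 56.7 in the failed heart and 177 in the normal heart (-1.96, ChIP alone -1.64), and its second probe set gave -1.34. Hdac10 had 67.4 in the failed and 225 in the normal heart (-1.52, ChIP alone -1.74), and its other probe sets gave -0.43, -1.93 and -1.01. For both genes the lower value in the failed heart thus recurred at their other probe sets. Kdm1a had 56.6 in the failed and 129 in the normal heart (-1.44, ChIP alone -1.19). Hdac5 had 288 in the failed and 137 in the normal heart (1.60, ChIP alone 1.08), but -1.29 at its second probe set. Hdac5 thus had opposite signs at its probe sets. Setd6 had 114 in the failed and 80.9 in the normal heart (1.50). Kdm5c had 164 in the failed and 121 in the normal heart (1.37), with 0.54 and -2.90 at its other probe sets. From ChIP alone the differences were 0.50 for Setd6 and 0.44 for Kdm5c. Kdm4b differed by 1.08 (ChIP alone 1.03), with -2.20 and 3.45 at its other probe sets, and Sirt5 by 1.16 (ChIP alone 0.52). Sirt6 differed by -1.27, of which -0.06 was in ChIP, Kmt5a by -1.23 (ChIP alone -0.22) and Sirt4 by -1.23 (ChIP alone -0.98), with 0.31 at the second probe set of Sirt4.

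The level of K9me2 at the enzyme genes was low in both hearts. The median enrichment of the 30 was -0.51 in the failed heart and -0.53 in the normal heart, against 0.09 in the failed and -0.08 in the normal heart for all genes, and 21 of 30 were below 0 in each heart. Over all 63 the medians were -0.58 in the failed and -0.52 in the normal heart. The other 50 probe sets of the enzyme genes had medians of -0.84 in the failed heart and -0.52 in the normal heart, against -0.07 in the failed and -0.16 in the normal heart for the other probe sets of all genes. Among genes that passed the mRNA filter the medians were -0.47 in the failed and -0.53 in the normal heart, against -0.03 in the failed and -0.22 in the normal heart. From the ChIP arrays alone the enzyme genes differed from all genes by -0.31 in the failed heart and -0.23 in the normal heart. At least 2-fold below pre-IP in both hearts were Sirt4, Sirt7, Ezh1 and Kdm6b, 13.3% of the 30 against 8.56% of all genes, and none was 2-fold above, against 4.46%. Sirt4 had the lowest enrichment, -3.75 in the failed heart and -2.53 in the normal heart, with ChIP values of 71.8 in the failed and 142 in the normal heart beside pre-IP values of 969 in the failed and 816 in the normal heart. Sirt2, below the level filter, had -3.10 in the failed and -2.20 in the normal heart. The highest by the mean of both hearts were Kdm2b, also below it, with 1.29 in the failed and 0.91 in the normal heart, and Kdm5c, with 1.66 in the failed and 0.29 in the normal heart. The other probe sets of Kdm5c lay below pre-IP, at -0.05 and -2.98 in the failed heart and -0.59 and -0.08 in the normal heart. The other probe set of Sirt4 lay at -0.58 in the failed and -0.89 in the normal heart. Dot1l was at the floor on both K9me2 arrays, so its -3.00 in the failed and -3.04 in the normal heart are bounds.

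**Figure D4:**
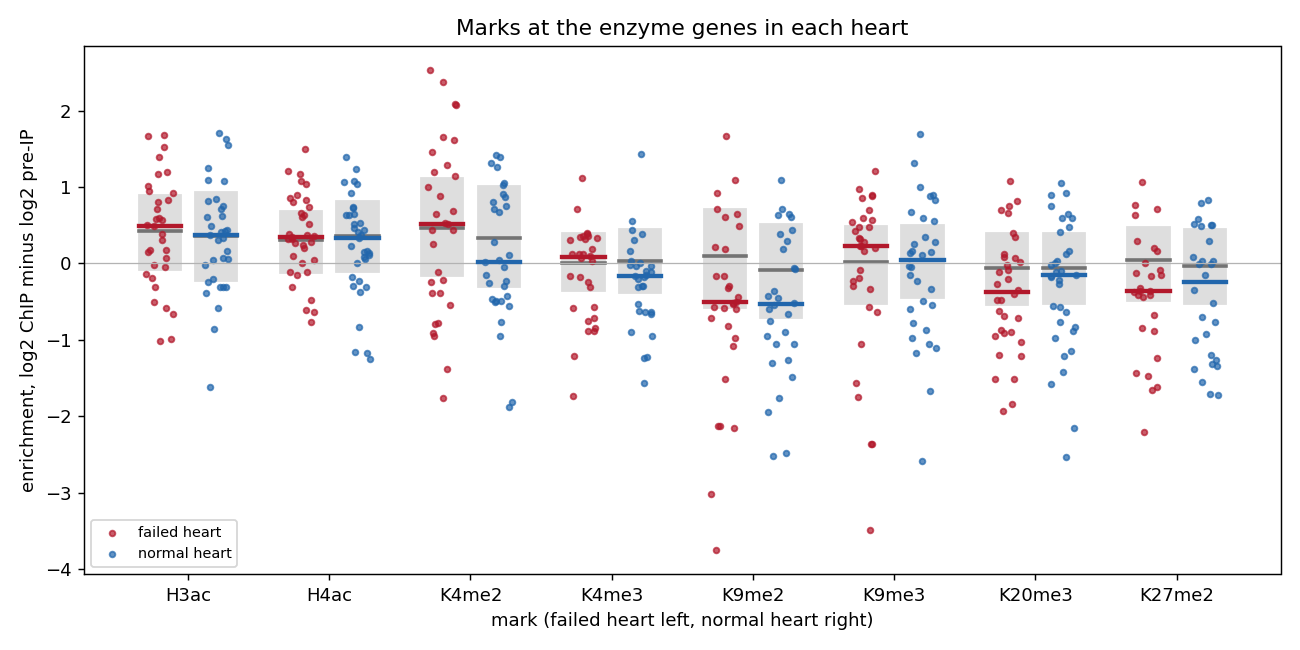
Log2 enrichment over pre-IP of 8 marks at the enzyme genes that passed the level filter, failed beside normal heart, 1 point per gene, with coloured lines at the medians of the enzyme genes, grey lines at those of all genes and grey boxes over the middle quartiles of all genes. For K9me2 the medians of -0.51 in the failed and -0.53 in the normal heart lie below those of all genes (0.09 in the failed and -0.08 in the normal heart), and for H3ac and H4ac they lie close to them.

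K9me3, the product of Suv39h1, Suv39h2 and Setdb1 and the substrate of the Kdm4 demethylases, was at least 2-fold higher in the failed heart at Kdm3a and Kdm4b among 32 that passed (9.14% of all genes). It was at least 2-fold lower at Kmt2b, Kmt5a, Ezh1 and Ezh2 (11.4%). Kdm3a had 139 in the failed heart and 88.2 in the normal heart (1.44, ChIP alone 0.65). Kdm4b had 165 in the failed and 71.0 in the normal heart (1.26, ChIP alone 1.21), with -2.84 and -1.50 at the other probe sets of Kdm4b. The other probe sets of Kdm4b thus ran opposite for H4ac and K9me3. Ezh2 had 121 in the failed and 184 in the normal heart (-1.41, ChIP alone -0.61), with -0.10 and 0.64 at its other probe sets. Kmt5a had 179 in the failed and 258 in the normal heart (-1.54). Kmt2b had 225 in the failed and 288 in the normal heart (-1.53). From ChIP alone Kmt5a differed by -0.53 and Kmt2b by -0.35, so the larger part was in pre-IP. The second probe set of Kmt2b gave 0.58. Ezh1 had 89.0 in the failed and 187 in the normal heart (-1.38, ChIP alone -1.07), with 0.04 at its second probe set. In both hearts Sirt5 was 2-fold above pre-IP, at 1.21 in the failed heart and 1.0 in the normal heart (2.34% of all genes). Hdac10, Sirt4, Kmt2d and Kdm6b were 2-fold below, 12.5% of the enzyme genes against 4.81% of all genes. The second probe set of Kmt2d gave 0.22 in the failed and -0.59 in the normal heart. Sirt4 again had the lowest value, -3.50 in the failed heart and -2.58 in the normal heart, while its second probe set lay at -0.08 in the failed and 0.82 in the normal heart. Kdm2b, below the filter, had 1.08 in the failed and 1.12 in the normal heart, and Sirt2, also below it, -2.27 in the failed and -2.01 in the normal heart. The median enrichment was 0.23 in the failed and 0.04 in the normal heart, against 0.01 in the failed and 0.05 in the normal heart for all genes, so the low K9me2 values had no counterpart in the K9me3 median.

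K20me3, written by Kmt5b and Kmt5c, was at least 2-fold higher in the failed heart at Kmt2d and Ehmt2 (8.91% of all genes) and at least 2-fold lower at Kmt2a, Kmt2b and Setd3 (8.56%), of 34 that passed. Ehmt2 had 133 in the failed heart and 62.9 in the normal heart, a difference of 1.10 with 1.08 from ChIP alone. Setd3, the gene with higher mRNA in the failed heart, had K20me3 values of 47.6 in the failed and 135 in the normal heart (-1.05, ChIP alone -1.51), and its second probe set gave -0.21. Kmt2b differed by -1.80 (ChIP alone -0.62), with -0.15 at its second probe set. Kmt2a had 62.3 in the failed and 139 in the normal heart (-1.51, ChIP alone -1.16), with its other probe sets between -0.49 and 0.57. Kmt2d had 92.5 in the failed and 57.7 in the normal heart (1.28, ChIP alone 0.68), with 0.83 at its second probe set. The highest by the mean of both hearts were Kdm4c, below the filter, with 1.16 in the failed and 0.61 in the normal heart, and Setd1a, with 0.70 in the failed and 1.06 in the normal heart. The other probe sets of Setd1a gave -0.60 and -0.02 in the failed heart, and 0.84 and -0.09 in the normal heart. None of the enzyme genes was 2-fold above pre-IP in both hearts (1.32% of all genes), and Sirt4 and Ezh1 were 2-fold below (3.94%), Ezh1 at -1.94 in the failed heart and -2.53 in the normal heart. The median was -0.38 in the failed and -0.16 in the normal heart, against -0.06 in both hearts for all genes. The gap to all genes in the failed heart, -0.31, was -0.038 from the ChIP arrays alone.

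K27me2, written by Ezh1 and Ezh2, differed past 2-fold at 1 of the enzyme genes. Of 28 genes that passed, none was at least 2-fold higher in the failed heart (6.83% of all genes) and Kmt5a was lower (6.38%), with 175 in the failed and 199.5 in the normal heart by ChIP. Its difference was -1.20, and -0.19 from ChIP alone. In both hearts 6 genes lay at least 2-fold below pre-IP, 21.4% of the 28 against 6.38% of all genes: Sirt4, Sirt7, Kat7, Kmt2e, Ezh1 and Setd5. None lay 2-fold above (1.45%). Ezh1 had -2.21 in the failed heart and -1.71 in the normal heart, with -1.09 in the failed and -0.28 in the normal heart at its second probe set. Kmt2d, below the level filter, had -2.40 in the failed and -2.71 in the normal heart. The highest by the mean of both hearts were Kdm4d, with 1.06 in the failed and 0.83 in the normal heart, and Hdac2, below the filter, with 0.77 in the failed and 0.53 in the normal heart. Kat7 had -1.62 in the failed and -1.72 in the normal heart, and Setd5 -1.43 in the failed and -1.55 in the normal heart. The other probe sets of Setd5 gave -0.68 and -0.54 in the failed heart, and 0.26 and 2.09 in the normal heart. The other 4 probe sets of Kmt2e were all below pre-IP in both hearts, between -2.10 and -0.41 in the failed heart. The median was -0.36 in the failed heart and -0.25 in the normal heart, against 0.04 in the failed and -0.03 in the normal heart for all genes, and at the other probe sets -0.48 in the failed and -0.21 in the normal heart, against -0.10 in the failed and -0.12 in the normal heart. The gap to all genes at the probe sets used, -0.40 in the failed and -0.22 in the normal heart, was -0.088 in the failed and -0.077 in the normal heart from the ChIP arrays alone.

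Some genes kept a like profile over the marks in both hearts at the probe set used. Sirt4 combined K4me2 above pre-IP (1.28 in the failed heart and 1.42 in the normal heart) with all 4 of K9me2, K9me3, K20me3 and K27me2 below it. Its second probe set did not: there K4me2 was 0.25 in the failed and -0.62 in the normal heart, K9me3 -0.08 in the failed and 0.82 in the normal heart, K20me3 0.39 in the failed and -0.15 in the normal heart, and K27me2 0.37 in the failed and 0.09 in the normal heart. Ezh1 showed the same 4 marks below pre-IP, with H3ac at 0.30 in the failed heart and 1.70 in the normal heart. At the second probe set of Ezh1, K9me2 (-2.26 in the failed and -0.92 in the normal heart) and K27me2 were below pre-IP in both hearts, while K9me3 was 0.13 in the failed and 0.09 in the normal heart and K20me3 -0.24 in the failed and 0.42 in the normal heart. Hdac10 had H3ac, H4ac and K4me2 above pre-IP in both hearts and K9me2 and K9me3 below. At its other probe sets H3ac and K4me2 were also above pre-IP in both hearts. In the normal heart some of them lay on the other side, with -0.05 for H4ac, 0.95 and 0.10 for K9me2 and 0.39 for K9me3. For Dot1l H3ac was 1.67 in the failed and 1.55 in the normal heart. K4me2 there was 1.65 in the failed and 1.02 in the normal heart. The second probe set of Dot1l gave 1.20 in the failed and 1.52 in the normal heart for H3ac, and 0.28 in the failed and 0.37 in the normal heart for K4me2. All marks of a heart share 1 pre-IP array, and both hearts share probes, so such likeness is a description. Across the enzyme genes that passed, Pearson's correlation of enrichment between the hearts ran from 0.22 for K4me3 to 0.77 for K27me2, and across all genes from 0.24 for K4me3 to 0.68 for K4me2. Between the probe set used and the next by mRNA of the same gene, the sign of the failed minus normal difference recurred in 10 of 27 genes for K4me2 and K9me3. It recurred in 17 for K20me3, with the other marks in between. The sign of the K9me2 enrichment itself recurred in 17 of 27 genes in the failed heart and 19 in the normal heart. These pairs too were not counted over all genes.

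**Figure D5:**
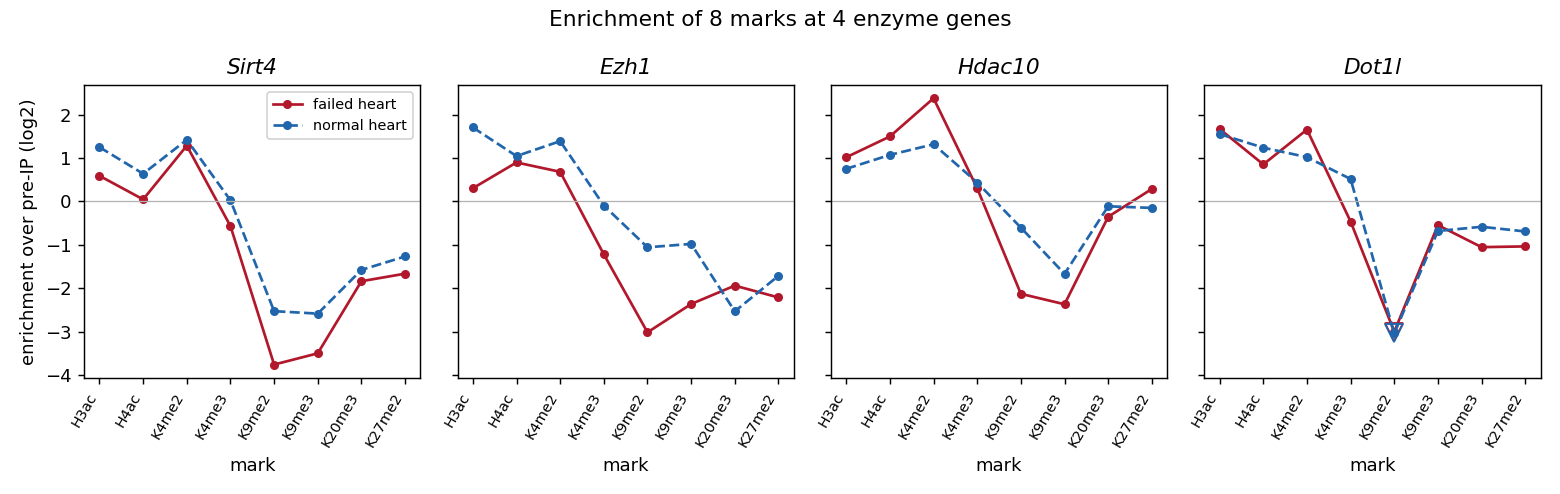
Log2 enrichment over pre-IP of the 8 marks at Sirt4, Ezh1, Hdac10 and Dot1l in the failed and the normal heart, joined by lines to guide the eye, with open triangles where the ChIP value was at the floor. At Sirt4 the 4 marks from K9me2 to K27me2 lie between -3.75 and -1.27, while K4me2 lies at 1.28 in the failed and 1.42 in the normal heart.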

How the data were processed

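The authors deposited linear intensity values of 31099 probe sets on 20 arrays. Every deposited array had a mean of 500.03 to 500.17 after trimming 2% at each end, and no tool that summarised them is given in the sources used here. Per the labels, RNA was converted to biotinylated cDNA, and DNA was amplified and labelled for the same arrays. Columns were matched to samples by their labels, and 0 columns were left over.

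With Python 3.11.15, pandas 2.3.3 and numpy 2.4.6, each array was scaled to a median of 100, values under 10 were set to 10, and log2 was taken. Probe sets were named from the platform annotation: 20826 belonged to 1 gene, and 436 to several genes were left out, as were those not listed. Of several probe sets of a gene, that with the highest mean log2 mRNA was used, and enrichment was the log2 ratio of ChIP to pre-IP within a heart. The symbols of 62 of 63 genes were the same in the current gene table. Promoters came from RefSeq.

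The genes, partner lists and cell markers were chosen with earlier results of these data known. Every enzyme gene was given by role. Named for marks were up to 3 differences each way past 2-fold and the 2 highest and 2 lowest genes by mean enrichment with no value at the floor, and, for pre-IP, all past 2-fold. Other genes named for a mark were chosen after their values were seen. The counting was tested on simulated data, where it recovered the changed genes without added noise; with noise drawn from the pre-IP differences, unchanged genes passed 2-fold as well. Alternatives were the deposited scaling, quantile normalization within mRNA and DNA arrays, a floor of 50, the mean of a gene's probe sets, no level filter, and ChIP without pre-IP. Arrays give no counts, so their number, 1 per group, limits the precision.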

Additional observations from a re-analysis of the deposited data

How the results depend on the processing

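Medians are given here as the enzyme genes' median minus that of all genes, and were called shifted when they moved by more than a stand-in spread, the SD of pre-IP differences over genes (0.56) divided by the square root of the number of genes. This spread comes from DNA arrays and counts genes as if they were independent. It is a yardstick for comparing settings and neither a replicate error nor a test. Of the counts, 34 stayed within 1.5 times and 24 did not; of the medians 75 moved by less than that spread and 26 by more; of the named mRNA differences 66 moved by less than 0.56 and 4 by more. The sign changed in 14 of these medians, of which only the K4me3 median of the normal heart had been larger than the spread. It also changed in 9 named mRNA differences: Hdac2 (-0.068 as deposited, -0.35 after quantile normalization), Ep300 (-0.23, -0.32, and -0.084 with the mean of a gene's probe sets), Ezh2 (-0.17 as deposited, -0.025 after quantile normalization), Kdm6b (-0.14 as deposited) and Hdac5 with the mean of its probe sets. With the deposited scaling 7 of 54 genes passed 2-fold in mRNA (13% of all genes). After quantile normalization 8 of 34 passed for K20me3 (23.8%) and 4 of 28 for K27me2 (18.3%). The failed-heart medians were then -0.039 for H3ac, -0.13 for K4me2 and -0.50 for K27me2. With the mean of a gene's probe sets the counts were 3 of 35 for H3ac (15.8%) and 0 of 37 for H4ac (9.11%). They were 2 of 34 for K9me3 (17.7%) and 2 of 31 for K20me3 (14.0%). The medians were -0.093 (failed) and -0.14 (normal) for H4ac, -0.059 (failed) for K4me3 and 0.10 (failed) for K9me3. They were -0.19 (failed) for K20me3 and -0.051 (normal) for K27me2. The mRNA differences of Dot1l (-1.81), Hdac1 (1.23), Hdac5 (0.17) and Ezh2 (0.89) shifted with that setting. Without the level filter all 63 genes were compared. The counts were 8 for pre-IP (15.5%), 13 for H3ac (27.6%), 10 for H4ac (21.1%), 16 for K4me2 (27.1%) and 15 for K4me3 (26.4%). They were 24 for K9me2 (35.4%), 14 for K9me3 (28.9%), 15 for K20me3 (28.2%) and 10 for K27me2 (22.4%). The medians were then -0.20 for mRNA, 0.19 (failed) and 0.10 (normal) for H4ac, -0.30 (failed) and -0.19 (normal) for K4me2, -0.15 (failed) for K4me3 and 0.0315 (failed) for K9me3.

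From ChIP without pre-IP the counts were 3 of 33 for H3ac (8.72% of all genes), 0 of 35 for H4ac (5.39%) and 3 of 29 for K4me2 (9.22%). They were 3 of 27 for K4me3 (4.75%), 5 of 25 for K9me2 (11.7%) and 2 of 32 for K9me3 (11.6%). For K20me3 1 of 26 (9.06%) and for K27me2 0 of 25 (5.17%) were counted. The medians were -0.22 (failed) for H3ac, -0.0625 (failed) for H4ac, 0.19 (failed) for K4me3, -0.31 (failed) and -0.23 (normal) for K9me2, 0.0098 (failed) for K9me3, -0.038 (failed) for K20me3, and -0.088 (failed) and -0.077 (normal) for K27me2. The K4me3 median of the normal heart turned from -0.20 to 0.020. A floor of 50 moved none of the counts, medians or named differences past these limits. Apart from the level filter and the ChIP setting, whose construction changes the genes or values compared, the cause was not tested. No paired analysis was possible because each group has 1 array per assay. For the same reason no library could be left out. The probe sets next to those used by mRNA level gave the same sign of mRNA difference in 13 of 27 genes. No share over all genes stands beside that count, and those probe sets were not held to the level filter.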
